A study of Mus musculus with 2 samples.

Results

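Solute carriers are membrane transporters named Slc, a family number, a letter and a member number, and 161 of their genes were expressed in the bone marrow-derived macrophages (BMDMs) examined here. The genes were selected on their measured signals. From the 333 genes on the array with a probe set of their own and a symbol that starts with Slc and a digit, the Slc29a and Slc30a genes being left out, those with a signal of 100 or more on at least 1 array were kept. They made up 48.3% of the 333 genes, and the same signal rule kept 9627 of all 18194 named genes, or 52.9%. Each gene was read on the probe set whose signal, averaged over the arrays, was highest. Of the 161 genes, 154 reached 100 on both arrays, 4 only with medium and 3 only with supernatant.

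The BMDMs were the adherent cells of bone marrow grown for over 7 days with mouse M-CSF and 10% fetal calf serum (FCS), and the donor animals were C57BL/6J females, 8 weeks old. They were then kept for 1 hr with medium, RPMI with 10% FCS by the sample labels, or with the supernatant of apoptotic W3 cells, which are mouse T cells of an established line with Fas on their surface. The W3 cells had received human Fas ligand (FasL) for 30 min, were washed, and released their products for 60 min into RPMI with 1% FCS. RNA of each condition was hybridized to 1 Affymetrix array of the mouse genome, so no difference below has a replicate, an error or a p-value. The comparison asks how macrophage transcripts differ after contact with what apoptotic cells release. By these descriptions the fluids held different amounts of serum, and whether serum was matched before use is not stated. No array of living W3 cell supernatant was analysed here, so serum, products of living cells and products of apoptosis cannot be told apart. In a bulk sample, fewer cells of a type and less RNA per cell cannot be told apart either.

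The arrays carried the macrophage label. All 14 macrophage marker genes were kept, and the signal of Csf1r, the receptor for M-CSF, was 30999 with medium and 28572 with supernatant. The summed signal of the 14 markers was 193867 with medium and 197054 with supernatant, but 8 of them were lower with supernatant and 6 were higher. Cd14 read 21224 with medium and 27645.5 with supernatant, and 1 marker, the engulfment receptor gene Mertk, was 2.23-fold higher. Of 15 T cell markers, 11 were under the floor of 38.5 on both arrays, including the T cell receptor subunits Cd3d, Cd3e and Cd3g. The floor is a background level, the 95th percentile of 77 probe sets for odorant and vomeronasal receptors, taken on the array where it was higher. Only Cd28 and Zap70 reached 100 among the T cell markers, and they differed in opposite directions, from 393 to 283 and from 208 to 313. The part of W3 cell RNA in the solute carrier signals was not tested beyond these markers.

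Solute carriers move amino acids, sugars, ions, metals, nucleotides and vitamins across the plasma membrane and the membranes of organelles. Some exchange one substrate for another, and others couple uptake to sodium or protons. In macrophages they are known for fuelling glycolysis, for recycling the iron of engulfed red cells, for stripping metals from phagosomes and for emptying lysosomes of digested material. The SLC25 family lies almost wholly in the mitochondrial inner membrane, and the SLC35 family carries nucleotide sugars into the endoplasmic reticulum and the Golgi.

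After 1 hr with the supernatant nearly all of these transcripts had signals close to those with medium. The log2 ratio of supernatant over medium, used throughout, had a median of -0.02 over the 161 genes, the same to this precision as over all kept genes, and its SD across genes was 0.25 against 0.34. Of the 161 genes, 126 (78.3%) lay within 1.2-fold, against 78.2% of all kept genes. The 10th and 90th percentiles of the log2 ratio were -0.30 and 0.25 for the solute carriers, and -0.31 and 0.26 for all kept genes. The log2 ratio was above 0 for 71 of the genes and below 0 for 90 (55.9%), against 54.1% below 0 among all kept genes.

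Few solute carriers passed the larger folds. 1 gene (0.621%), Slc25a33, was at least 2-fold higher with the supernatant, where the share of all kept genes was 0.976%. None was at least 2-fold lower, against 0.644% of all kept genes. At a fold of 1.5, 3 genes (Slc25a33, Slc25a25 and Slc1a4) were higher and 1 gene (Slc9a5) was lower, against 2.74% and 2.87% of all kept genes. At a fold of 1.3, 9 solute carriers were higher (5.59%, against 5.84% of all kept genes) and 8 were lower (4.97%, against 6.86%). Each of these shares was at or below that of all kept genes, and they are given as a description, since the signals themselves selected the genes.

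The spread was smallest among bright transcripts, with an SD of the log2 ratio of 0.17 at a mean signal of 1000 or more, 0.24 from 300 to 1000 and 0.29 from 100 to 300. Of the 61 solute carriers in the first range, none passed 1.5-fold. Of the 4282 kept genes in it, 68 (1.59%) were higher by this fold and 19 (0.444%) were lower. In the range from 300 to 1000, 1 of 68 solute carriers (1.47%) passed it, Slc25a33, which was higher. Of all kept genes in that range, 2.59% were higher and 1.47% were lower. The other 3 genes past 1.5-fold had mean signals below 300, and 2 of them, Slc25a25 and Slc1a4, had mean signals under 100.

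**Figure D1:**
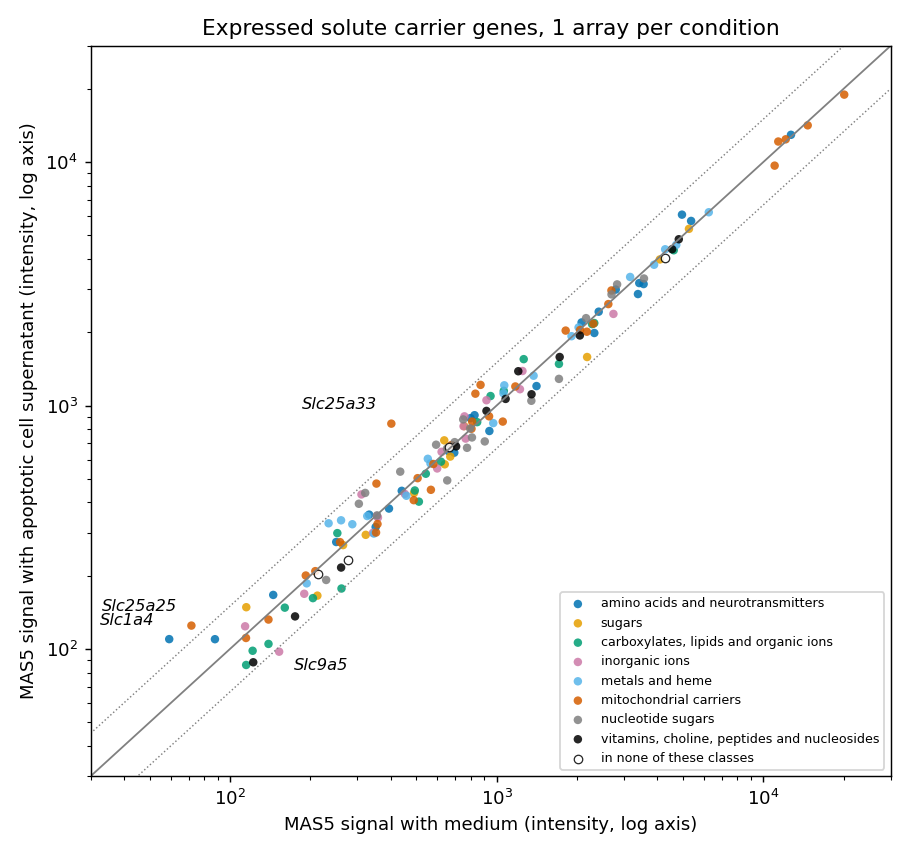
MAS5 signal of each of the 161 solute carrier genes with medium (horizontal, log axis) and with apoptotic cell supernatant (vertical, log axis), 1 array per condition, coloured by transporter class. The solid line marks equal signals and the dotted lines 1.5-fold, and the points beyond the dotted lines are Slc25a33, Slc25a25 and Slc1a4 above and Slc9a5 below.

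The mitochondrial carriers formed the largest class, with 33 of the 44 genes on the array kept. Their median log2 ratio was -0.01, and 2 of the 33 were at least 1.5-fold higher and none lower. The shares of all kept genes at this fold were 2.74% and 2.87%. At 1.3-fold, 5 (15.2%) were higher and none was lower, against 5.84% and 6.86% of all kept genes. The 5 were Slc25a33, Slc25a25, Slc25a28, Slc25a32 and Slc25a10. Among them, Slc25a25 was kept only through the array with supernatant, where it was high. The bright probe sets of Slc25a10 differed in direction.

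Slc25a33, which carries pyrimidine nucleotides into mitochondria, had a signal of 403 with medium and 843 with supernatant. That is 2.09-fold, a log2 ratio of 1.06, and the highest of all 161 genes. It had a single probe set on the array, so no other probe set of the gene bears on it. The signal of Slc25a36, the other mitochondrial pyrimidine nucleotide carrier, was 2624 and 2610, close to equal.

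Slc25a25, a calcium-regulated carrier that exchanges ATP-Mg for phosphate, had a signal of 71.7 with medium and 125 with supernatant, or 1.74-fold. Only the array with supernatant was above 100, so the gene was kept through the condition in which it was high. Of its dimmer probe sets, one read 38.9 and 65.5, higher with supernatant as well, and the other read 11.1 and 8.91, under the floor on both arrays. Slc25a24, a carrier of the same kind, had bright signals and lay the other way, at 11031 with medium and 9670 with supernatant, a log2 ratio of -0.19.

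The stretches before the starts of Slc25a25, Slc25a33 and Slc1a4, genes chosen by their ratios, are shown with matches to short sites. Among these are a cAMP response element (CRE), bound by CREB-type factors, and an E-box, bound by basic helix-loop-helix factors. RefSeq starts of build GRCm38.p6 were used, matched for 123 of the 161 genes in 162 windows of 250 bases before a start. The letters TGACGTCA (CRE), TGACG (CRE half-site, which also lies within the full CRE), TGACTCA (AP-1), GCGTGGGCG (Egr) and CACGTG (E-box) were searched on both strands. Capitals mark the matches, 5′ to 3′ along the gene, in Slc25a25 at chr2:32424067-32424316 (- strand), Slc25a33 at chr4:149774268-149774517 (- strand) and Slc1a4 at chr11:20332714-20332963 (- strand):
Slc25a25: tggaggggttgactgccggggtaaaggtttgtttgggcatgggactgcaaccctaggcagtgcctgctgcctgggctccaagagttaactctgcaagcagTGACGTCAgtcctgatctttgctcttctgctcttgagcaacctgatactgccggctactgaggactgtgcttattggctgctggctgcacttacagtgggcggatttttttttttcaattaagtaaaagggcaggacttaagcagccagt
Slc25a33: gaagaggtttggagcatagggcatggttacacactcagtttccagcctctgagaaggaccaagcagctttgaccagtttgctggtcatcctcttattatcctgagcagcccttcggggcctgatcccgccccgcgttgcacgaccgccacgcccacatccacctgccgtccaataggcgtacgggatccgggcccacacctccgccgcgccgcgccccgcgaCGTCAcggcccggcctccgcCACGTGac
Slc1a4: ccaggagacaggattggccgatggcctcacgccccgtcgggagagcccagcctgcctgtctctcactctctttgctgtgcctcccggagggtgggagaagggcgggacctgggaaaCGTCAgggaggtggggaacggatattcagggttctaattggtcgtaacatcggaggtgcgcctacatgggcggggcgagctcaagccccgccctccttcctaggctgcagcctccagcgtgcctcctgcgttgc
The Slc25a25 window holds a full CRE whose first base lies 150 bases before the start, and the other windows of that gene hold none of the letters searched. The Slc25a33 window holds a half-site that begins 28 bases before the start and an E-box that begins 8 bases before it. The Slc1a4 window holds a half-site 134 bases before the start, and the Slc9a5 window holds none of the letters. The full CRE was found in 1.85% of the solute carrier windows and 2.72% of the windows of all kept genes, and the half-site in 28.4% and 27.9%. The E-box was found in 14.2% of the solute carrier windows, 8.70% of those of all kept genes and 6.02% of all 32851 windows. AP-1 letters were in 3.70% and 3.25%, and Egr letters in 3.09% and 1.11%, of the solute carrier windows and of those of all kept genes. These are matches of letters, binding was not measured, and whether any site bears on the signals was not tested.

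The iron importers of mitochondria differed in opposite directions. Slc25a28 (mitoferrin 2) read 870.4 with medium and 1216 with supernatant, or 1.40-fold higher, from a single probe set. Slc25a37 (mitoferrin 1) read 567 and 451, a log2 ratio of -0.33 and the lowest of the class.

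Slc25a32, the mitochondrial folate and flavin carrier, was higher on both of its bright probe sets. The brighter one read 354 with medium and 478 with supernatant, and the other read 190.0 and 301, log2 ratios of 0.43 and 0.67. Slc25a10, the dicarboxylate carrier, also had a log2 ratio of 0.43 on its brighter probe set (832 and 1119). Its other bright probe set read 273 and 262, slightly lower with supernatant, so the probe sets of Slc25a10 differed in direction.

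The most abundant carriers were near equal. Slc25a5, an ADP/ATP translocase, read 20118 with medium and 18929 with supernatant, and 7 further bright probe sets of this gene had log2 ratios from -0.19 to 0.20. The phosphate carrier Slc25a3 read 14677 and 14157, and the second translocase Slc25a4 read 12139 and 12404. Slc25a39, needed for glutathione import into mitochondria, read 11383 and 12147. At the low end, besides Slc25a37, Slc25a30 read 1054 and 859, and its other bright probe sets had log2 ratios of -0.29 and -0.11.

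**Figure D2:**
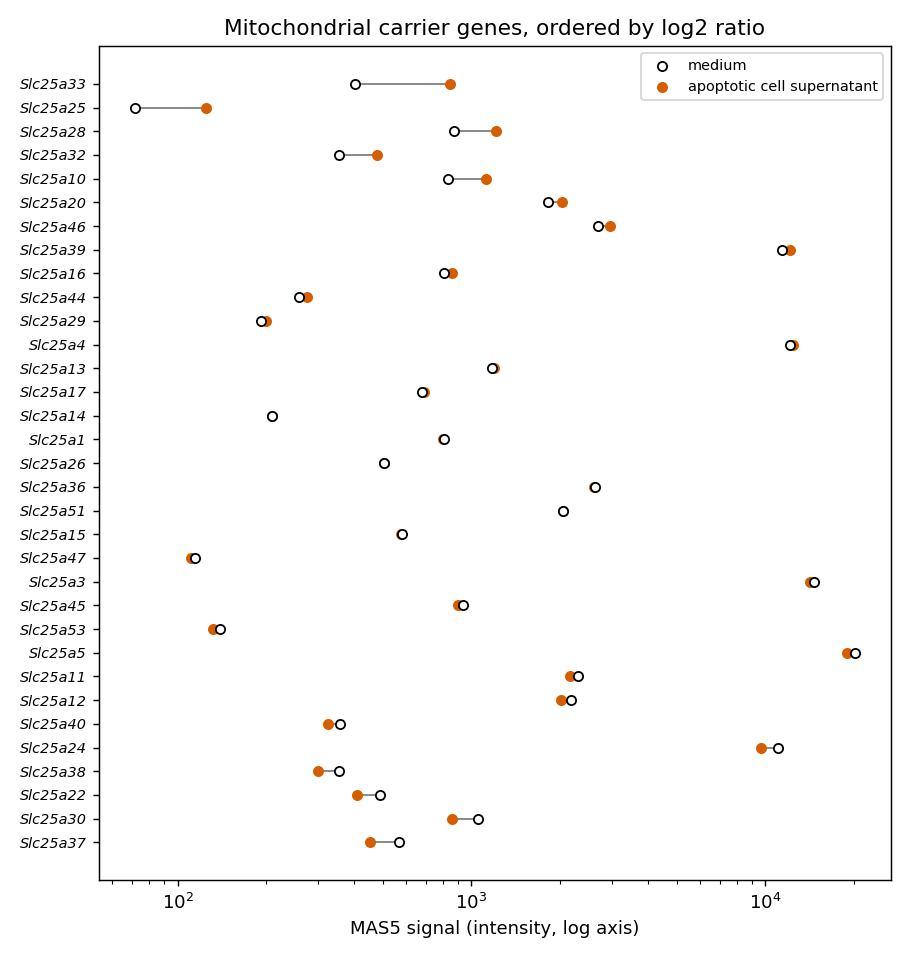
MAS5 signals (log axis) of the 33 mitochondrial carrier genes with medium (open circles) and apoptotic cell supernatant (filled circles), 1 array each, ordered by log2 ratio. Slc25a33 at the top goes from 403 to 843, while Slc25a36 goes from 2624 to 2610.

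Among carriers of amino acids and neurotransmitters, 24 of the 59 genes on the array were kept. Their median log2 ratio was 0.02, with 1 gene at least 1.5-fold higher and none lower. That gene, Slc1a4 (ASCT1, an exchanger of small neutral amino acids), read 59.2 with medium and 109.8 with supernatant, or 1.85-fold. It entered only through the array with supernatant. Its other probe sets went the opposite way, from 76.3 to 58.5 and from 65.6 to 9.41, and the gene's direction therefore rested on the probe set used. The related exchanger Slc1a5 (ASCT2), which carries glutamine, read 798 and 888.

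The abundant amino acid carriers lay near 1. Slc6a6, the taurine transporter, read 12703 with medium and 12944 with supernatant. Slc3a2, the heavy chain that the SLC7 exchangers need at the cell surface, read 5362 and 5732. Slc38a2 (SNAT2), a sodium-coupled carrier known to be induced when amino acids are short, read 4956 and 6082, a log2 ratio of 0.30. Its further bright probe sets had log2 ratios of 0.13 and -0.42.

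The 7 kept genes of the SLC7 family had a median log2 ratio of -0.17 and a range from -0.26 to 0.14. Slc7a6, a light chain that exchanges cationic for neutral amino acids, read 939 with medium and 786 with supernatant, but its other bright probe set read 519 and 523. Slc7a8 (LAT2) read 3389 and 2870.3, and Slc7a5 (LAT1), the leucine exchanger, read 1411 and 1202. Slc7a1, the arginine transporter, read 3558 and 3154, and its other bright probe set 1498 and 1440.2. None of these differences reached 1.2-fold.

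Slc6a17, a vesicular carrier of neutral amino acids, was at the edge of the signal threshold, at 87.8 with medium and 109.7 with supernatant. Slc43a2 (LAT4), which carries branched-chain amino acids, read 3427 and 3184. Slc7a11, the cystine carrier xCT, was not among the kept genes, at 74.1 and 60.1.

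In the amino acid response, in which the factor Atf4 drives carriers and synthetases when amino acids are short, 23 of 25 listed genes were kept, with a median log2 ratio of -0.01. At 1.5-fold, 1 of the 23 was higher and 1 was lower. The shares of all kept genes at this fold were 2.74% and 2.87%. At 1.3-fold, 1 was higher and 3 were lower, where the shares of all kept genes were 5.84% and 6.86%. The 3 were Atf4, Chac1 and Trib3, the last at 275 with medium and 206 with supernatant, or 1.33-fold lower. Atf4 itself read 3169 with medium and 2352 with supernatant, a log2 ratio of -0.43. Chac1, which degrades glutathione, read 278 and 114, or 2.44-fold lower, and Cebpb, a factor also induced by many inflammatory stimuli, read 9955 and 15690.5. Asns, asparagine synthetase, was close to equal at 4939 and 5080.0. Of the 23 genes, 11 lay above 0 and 12 below.

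Of 31 sugar carriers on the array, 12 were kept, with a median log2 ratio of -0.08 and none past 1.5-fold. Slc2a1 (GLUT1), the main glucose transporter of macrophages, read 5264 with medium and 5318 with supernatant, and its other bright probe sets had log2 ratios of -0.05 and 0.07. Slc2a3 (GLUT3), a high-affinity glucose transporter, read 2184 and 1582, or 1.38-fold lower. A second bright probe set of Slc2a3 read 785 and 496, or 1.58-fold lower, so both bright readings of this gene were lower with supernatant. Its dim probe sets were under the floor on both arrays.

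The other sugar carriers lay closer together. Slc37a2, which exchanges sugar phosphates for phosphate in the endoplasmic reticulum, read 4094 with medium and 3982 with supernatant. Slc2a9, a urate transporter, read 213 and 166. Upward, Slc5a6, which belongs to the sugar family SLC5 but carries biotin and pantothenate, read 115 and 148, and Slc45a4 read 636 and 719.

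Carriers of carboxylates, lipids and organic ions had 14 of 19 kept genes (73.7%) below 0, against 54.1% of all kept genes, and a median log2 ratio of -0.09. The array held 64 genes of this class, and none of the 19 passed 1.5-fold. At 1.3-fold, 3 (15.8%) were lower and none was higher. The mean signals of the 3 lay between 100 and 300, a range in which 17.3% of all kept genes were lower by this fold. Slc22a4 (OCTN1), the ergothioneine transporter, read 262 with medium and 177 with supernatant, or 1.48-fold lower, just short of the fold used. Slc17a9, which loads ATP into vesicles, read 115 and 86.0, but its other bright probe set read 101 and 94.5. Slc22a15 read 139 and 105. 

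Upward in this class, Slc17a5 (sialin), which exports sialic acid from lysosomes, read 1264 with medium and 1551 with supernatant, a log2 ratio of 0.30. Slc16a3 (MCT4), the lactate exporter of glycolytic cells, read 253 and 299. Slc16a1 (MCT1), which carries lactate and pyruvate in either direction, read 2324 and 2182. Slc16a10, a carrier of aromatic amino acids, read 4616 and 4343, and Slc16a6 read 2280.0 and 2159. The 7 kept genes of the SLC16 family had log2 ratios from -0.34 to 0.24.

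Of the inorganic ion carriers, 17 of 49 were kept, with a median log2 ratio of -0.05 and 1 gene at least 1.5-fold lower. This was Slc9a5 (NHE5), a sodium-proton exchanger, at 152.9 with medium and 97.5 with supernatant, or 1.57-fold lower. Its other probe set was dim and also lower, 45.6 and 8.57, the latter under the floor. The gene was kept only through the array with medium. Slc9b2 (NHA2), another sodium-proton exchanger, read 311 and 431, a log2 ratio of 0.47.

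Slc12a2 (NKCC1), the cotransporter of sodium, potassium and chloride, read 757 with medium and 903 with supernatant. Its other bright probe sets were lower, 117 and 28.9 for one and 176 and 138 for the other, so the probe sets did not share a direction. The abundant genes of the class were nearer to equal. The phosphate carrier Slc20a1 read 2742 and 2379, the chloride-bicarbonate exchanger Slc4a2 read 1249.9 and 1386, and the potassium-chloride cotransporter Slc12a7 read 1223 and 1167.

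Metal and heme carriers were kept most completely among the classes named by substrate, with 20 of 23 genes (87.0%). The Slc30a genes, which are zinc carriers, were left out before this count. The log2 ratios of the 20 kept genes ran from -0.22 to 0.49, with an SD of 0.17, the smallest of the 8 classes. Their median was 0.03 and none passed 1.5-fold. All 3 magnesium carriers of the SLC41 family lay above 0. Slc41a1 read 234 with medium and 328 with supernatant, a log2 ratio of 0.49, and Slc41a3 read 261 and 338, or 0.37. The other bright probe set of Slc41a3 had a log2 ratio of 0.24. Slc41a2 had a log2 ratio of 0.08.

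The iron and phagosome carriers were near equal. Slc11a1 (NRAMP1), which takes iron and manganese out of phagosomes, read 4718 with medium and 4571 with supernatant. Slc40a1 (ferroportin), the iron exporter, read 1376 and 1326, and its other bright probe set 279.6 and 267. Slc48a1, which exports heme from phagolysosomes, read 3167 and 3374, and Slc11a2 (DMT1) read 327 and 352. Of 16 listed genes of iron and heme handling that are no solute carriers, 13 were kept, with a median log2 ratio of 0.00 and none past 1.5-fold. Among them the heme oxygenase gene Hmox1 read 5639 and 5003, and the transferrin receptor gene Tfrc read 7348 and 6949.

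The 11 kept zinc carriers of the SLC39 family lay between -0.22 and 0.18. The brightest, Slc39a6, read 6247 with medium and 6222 with supernatant, and Slc39a1 read 4286 and 4384. Slc39a14, which also carries iron and manganese, read 971 and 847, a log2 ratio of -0.20, and its other bright probe sets lay the other way, at 0.25 and 0.15. Slc39a3 had the lowest log2 ratio of the family, from 347 to 298, while its dimmer probe set read 118 and 188, in the opposite direction.

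Of the 26 genes of the nucleotide sugar family SLC35, 20 were kept. Their median log2 ratio was 0.02 and their range -0.41 to 0.44, with none past 1.5-fold. In this class 65% of the genes lay within 1.2-fold, against 78.3% of all 161.

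At the high end of the SLC35 family, Slc35g1 read 321 with medium and 438 with supernatant, and Slc35d1, a carrier of UDP-glucuronic acid and UDP-N-acetylgalactosamine, read 304 and 395. Slc35e4 was higher on both bright probe sets, 435 and 535 on the brighter and 271 and 423 on the other. Slc35a2, the UDP-galactose carrier, read 749 and 877, and its 4 further bright probe sets all lay above 0 as well, at log2 ratios from 0.14 to 0.56.

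At the low end, Slc35f5 read 1713 with medium and 1287 with supernatant, and Slc35e3 read 653 and 492, both at a log2 ratio of -0.41. Slc35f6 was lower on both bright probe sets, from 1349.6 to 1046 and from 1242 to 1023. The brightest genes of the family were near equal, with Slc35b1, an ATP/ADP exchanger of the endoplasmic reticulum, at 3569 and 3325. The UDP-N-acetylglucosamine carrier Slc35a3 read 2831 and 3145, and Slc35a5 read 2697 and 2860.4.

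Of the carriers of vitamins, choline, peptides and nucleosides, 10 of 12 kept genes (83.3%) lay below 0, against 54.1% of all kept genes. Their median log2 ratio was -0.07, and none passed 1.5-fold. No nucleoside carrier was among the 12. Slc28a3 was under the floor, at 18.9 with medium and 17.6 with supernatant, and Slc28a2 was read only on a probe set shared with another gene. Slc15a3, a lysosomal carrier of histidine and small peptides, read 4821 with medium and 4819.8 with supernatant. It was counted below 0, as was Slc19a2 at -0.02. Median-centring put the class median at -0.04 and Slc15a3 at 0.03. Its relative Slc15a4, needed for signals from endosomal Toll-like receptors, read 1206 and 1383, one of the 2 genes above 0. The other was Slc66a1, a lysosomal exporter of cationic amino acids, at a log2 ratio of 0.05. The choline carriers Slc44a1 and Slc44a2 read 4551 and 4386, and 2052 and 1939.8. The other bright probe set of Slc44a1 was also lower, 441 and 358, while that of Slc44a2 was higher, 317 and 428.

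At the low end of this class most signals were under 300. Slc52a3, a riboflavin carrier, read 122 with medium and 88.2 with supernatant, and Slc46a3, a lysosomal carrier, read 175 and 136. Slc66a2 read 1352 and 1112, and its second bright probe set 497 and 364, both lower with supernatant. Slc46a1, the proton-coupled folate carrier, read 261 and 216, but its other bright probe set read 92.4 and 109, in the opposite direction. The reduced folate carrier Slc19a1 read 705 and 679, and its other bright probe set 410 and 333.

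**Figure D3:**
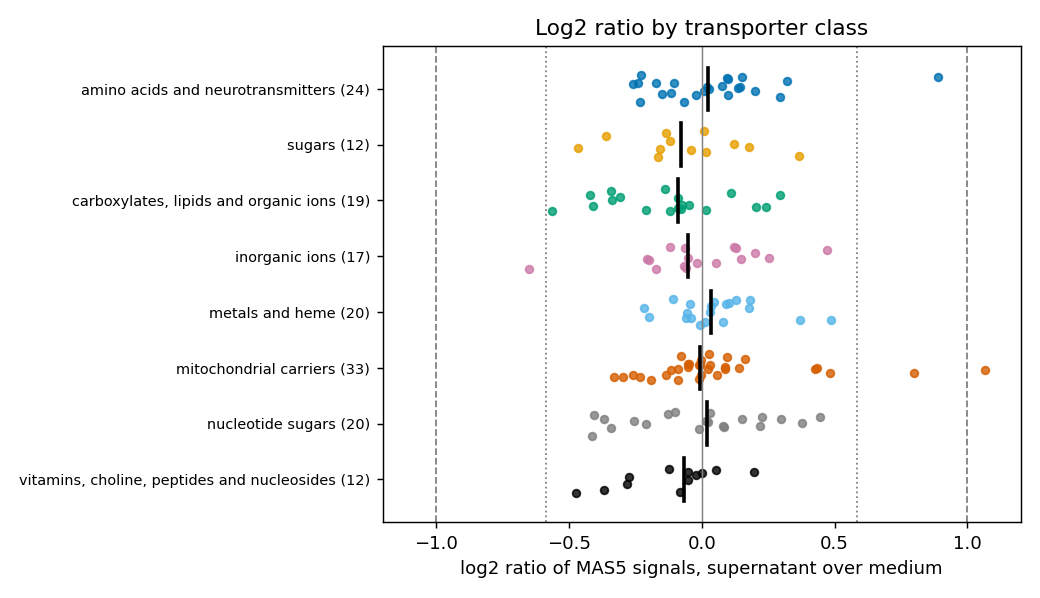
Log2 ratio of MAS5 signals, supernatant over medium, for the kept genes of the 8 transporter classes (number of genes in brackets), each point a gene and each black bar the class median. Dotted and dashed lines mark 1.5-fold and 2-fold, and the class medians lie between -0.09 and 0.03.

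The remaining 4 kept genes were 3 named after a transporter and Slc49a4, which was put in no class. Slc9a3r1, a scaffold protein that binds sodium-proton exchangers, read 4273 with medium and 4036 with supernatant. Slc4a1ap read 662 and 673, Slc7a6os read 213 and 204, and Slc49a4 read 276 and 231.

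Most transporters outside the Slc nomenclature also lay near equal. Of 45 ABC transporters, which use ATP to pump their substrates, 23 were kept, with a median log2 ratio of -0.05 and none past 1.5-fold. Abcg1, a cholesterol exporter, read 1126 with medium and 805 with supernatant, and Abca1, which loads cholesterol onto apolipoprotein, read 2191 and 1947. Of 50 other genes listed as transporters without an Slc name, 29 were kept, with a median of -0.03. Of these, 1 (3.45%) was at least 1.5-fold higher, against 2.74% of all kept genes. This was Unc93b1, listed with them although it escorts nucleic acid-sensing Toll-like receptors to endosomes, at 1482 and 2333, or 1.57-fold.

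Agreement between probe sets gave the only measure of spread on these arrays. Of the 161 genes, 71 had at least 1 other probe set with a signal of 100 or more, 111 such probe sets in all. The log2 ratio of each was set against that of the brightest probe set of its gene, and the SD of these differences over the square root of 2 was 0.30. It was 0.46 where the other probe set reached 100 to 200, 0.18 from 200 to 500 and 0.14 at 500 or more. Probe sets of a gene share the sample and the array, so this spread leaves out biological and array-to-array error.

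Among those 111 probe sets, 8 were higher and 6 were lower by 1.5-fold or more, although none of their genes passed this fold on the brightest probe set. In 2 of the 71 genes (Slc25a32 and Slc35e4) every bright probe set was higher by more than 1.2-fold, and in 3 (Slc2a3, Slc35f6 and Slc66a2) every one was lower by more than 1.2-fold. In 3 genes bright probe sets lay beyond 1.2-fold on both sides. None of Slc25a33, Slc25a25, Slc1a4 and Slc9a5 had a second bright probe set. The largest disagreements were found where the other probe set reached no more than 200. For Slc25a12, an aspartate-glutamate carrier, one read 48.4 with medium and 125 with supernatant and another 109.6 and 66.9, beside 2180 and 2010.4 on the brightest. Likewise, for Slc7a7, which exchanges cationic amino acids, another probe set read 138 and 53.8 beside 441 and 446. Brighter probe sets could also differ in direction. The other probe set of Slc27a1 read 1116 and 1459 beside 1713 and 1482, and that of Slc44a2 read 317 and 428 beside 2052 and 1939.8.

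**Figure D4:**
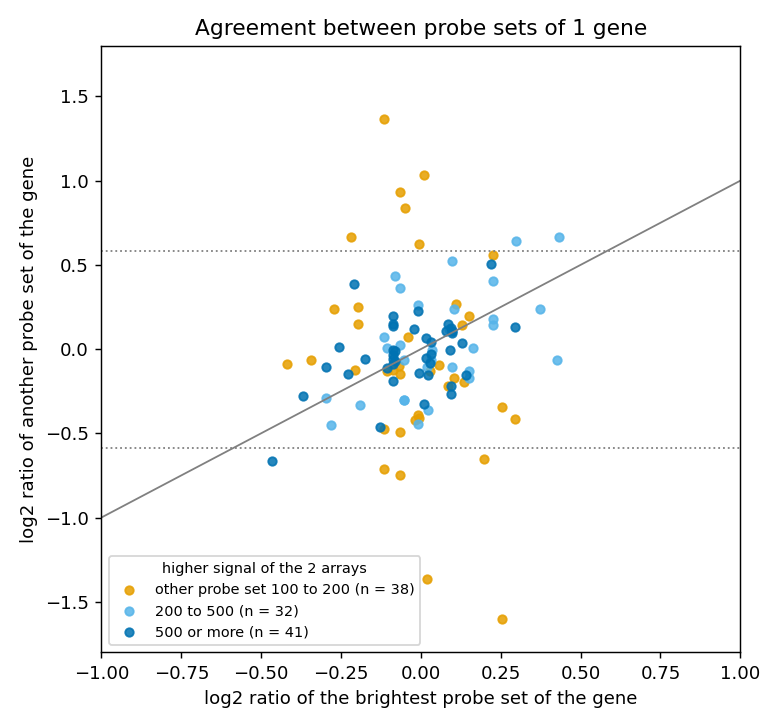
Log2 ratio of the brightest probe set of a gene (horizontal) against that of each of its 111 other bright probe sets (vertical), coloured by the higher signal of the other probe set on the 2 arrays, with the line of equality and dotted lines at 1.5-fold. Probe sets that reached 100 to 200 scatter most (SD of the difference over the square root of 2, 0.46) and those at 500 or more scatter least (0.14).

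Of the 172 solute carrier genes that were not kept, 126 did not reach the floor on either array and 46 lay between the floor and the threshold. The highest of them reached 92.5. Just outside the threshold were Slc25a42, at 87.3 with medium and 92.5 with supernatant, Slc25a27, at 34.3 and 92.1, and Slc45a1, at 90.4 and 91.8. Just inside were Slc6a17, Slc1a4 and Slc25a47, the last at 114.8 and 111.0. The share of genes kept ran from 29.7% of the carriers of carboxylates, lipids and organic ions to 87.0% of those of metals and heme, with 75% of the mitochondrial carriers and 76.9% of the SLC35 genes.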

How the data were processed

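RNA of BMDMs was measured on 1 Affymetrix array per condition. The deposited values are linear intensities, the signals that the authors obtained with MAS5 for each probe set, and both arrays have a trimmed mean of 500.0 (2% trimmed at each end). The genome build of the array design is not given in the sources used here. Each array was assigned its condition by its label.

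The array's annotation gave 34958 of 45101 probe sets a single gene, 932 several genes, and 9211 were not listed. All 161 solute carrier genes matched the RefSeq gene table (GRCm38.p6) by Entrez identifier, and 0 symbols differed. A gene was read on its brightest probe set by mean signal, signals below 38.5 (the floor) were raised to it, which applied to no solute carrier read here, and the log2 ratio was computed. All other genes were treated alike. Genes were put in 8 classes by family number. No test was run on single arrays, whose number limits the precision. The solute carriers, classes and other lists were chosen with earlier results of these data known.

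Genes named are those at least 1.5-fold higher or lower, per class the 3 with the highest mean signal and the 2 with the largest ratio each way, and those at the edge of the threshold. Others were named after their values were seen. Alternatives were other scalings (median-centring, quantile normalization, loess with a span of 30%), floors, a pseudocount, other choices of probe set and other thresholds. The tools were pandas 2.3.3 and numpy 2.4.6 under Python 3.11.15, with statsmodels 0.14.6 for loess, scipy 1.17.1, and matplotlib 3.10.9 for the plots, and the computation was tested on simulated data.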

Additional observations from a re-analysis of the deposited data

How the results depend on the processing

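Slc25a33 was at least 1.5-fold higher under every alternative run, but only the scalings and the pseudocount could change its ratio. Its 1 probe set has no suffix, and its signals of 403 and 843 lay above every floor and threshold used. Its log2 ratio was 1.09 after median-centring, 1.09 after quantile normalization, 1.10 after loess and 0.997 with the pseudocount. No paired analysis was possible because the conditions share no replicates beyond a single array each. The median log2 ratio of the solute carriers was 0.011 after median-centring, -0.049 when a gene's probe sets were averaged, and -0.047 without probe sets that carry a suffix for shared sequence. The scalings moved the median of all kept genes by at most 0.03. No gene was at least 1.5-fold lower after quantile normalization, after loess, with the floor as a pseudocount (0 genes in each) or at a threshold of 200, which also left 1 gene at least 1.5-fold higher. With the pseudocount, 0 genes were at least 2-fold higher. With probe sets averaged, 2 genes passed 2-fold upward and 2 downward, and 5 passed 1.5-fold upward and 7 downward. The shares of all kept genes were then 1.58% and 1.37% at 2-fold, and 4.54% and 5.41% at 1.5-fold. In the main results the shares at 1.5-fold were 2.74% and 2.87%. With probe sets averaged, the class medians were -0.14 for amino acids and -0.073 for nucleotide sugars. That setting turned Slc1a4 to -0.76, and gave 0.12 for Slc25a25 and -1.11 for Slc9a5. Without suffixes, 2 genes were at least 2-fold higher. With a threshold at the floor, which keeps 207 genes, 3 were at least 2-fold higher and 1 lower, and 11 were at least 1.5-fold higher and 9 lower. Of all genes kept at that threshold, 0.962% were at least 2-fold higher and 0.836% lower. At 1.5-fold the shares were 3.67% and 4.46%. Lower thresholds add dim genes, and the cause of the other shifts was not tested. At a floor of 77.1, Slc1a4 was 1.42-fold higher. Removing the floor or changing the threshold could not alter the ratio of a named gene. These settings gave 58 values without a floor, 50 at a threshold of 200 and 58 with the threshold at the floor. Counting them, 547 of 561 values of 58 named genes under alternatives moved by less than the spread between probe sets (0.30). The other 14 moved by more, and 9 of them changed sign, 8 with probe sets averaged and 1, Slc44a2, without suffixes. The 8 are Slc1a4, Slc12a2, Slc25a30, Slc39a3, Slc39a14, Slc41a3, Slc45a4 and Slc6a17. A further 10 values changed sign by less than that spread. With probe sets averaged, 13 of 58 values changed sign. Averaging could change only genes with more than 1 probe set, and leaving out suffixes only genes read on a suffixed one. The floor of 77.1 could change only genes with a signal under it, so many of the 547 values could not move.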

Other observations

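Of 6 probe sets that the annotation gives to several genes with a solute carrier among them, 4 were under the floor on both arrays. The probe set shared by Slc28a2 and Slc28a2b, nucleoside transporters, read 433 with medium and 435 with supernatant. The one shared by Slc9a7 and 6330509M05Rik read 171 and 221.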
